A study of Mus musculus with 32 samples.

Results

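The HoxA genes nearest the Evx1 side of the cluster were examined together with the 800 kb of chromosome 6 that lie beyond Hoxa13, in 32 lists of ATAC-seq peak summits from mouse limb buds. The genes were Hoxa5, Hoxa6, Hoxa7, Hoxa9, Hoxa10, Hoxa11, Hoxa13 and Evx1, 8 of 21851 protein-coding genes. The cluster was taken as chr6:52201754-52260880 (mm10, 59127 bp), from the lower edge of Hoxa5 to the Hoxa13 start, and the landscape as chr6:52260881-53060880, from there through Evx1, Hibadh and Tax1bp1 into Jazf1. All summits in these bounds were kept, 194 in the cluster and 803 in the landscape, or 997 of 1234971 summits. They fell into 171 intervals of 200 bp (38 in the cluster and 133 in the landscape) of 186178 in the genome, and 123 of these (26 and 97) were listed in at least 2 libraries, of 125535.

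ATAC-seq marks open chromatin, since the Tn5 transposase inserts adapters where nucleosomes leave the DNA exposed, and the study asked how the ETS factor ETV2 acts on limb bud chromatin. EYFP+ cells of the Etv2-EYFP transgenic line, in which a fragment of the Etv2 promoter drives the reporter, were sorted free of CD31 and TIE2 endothelial cells at E10.5. Each of 3 pools of embryos gave 1 forelimb library (E10.5 FL EYFP+) and 1 hindlimb library (E10.5 HL EYFP+). Etv2 was deleted in HoxB6-Cre Tg/+; Etv2 fl/- embryos, whose posterior hindlimb cells were taken at E10.5 (E10.5 CKO, 2 libraries) and E10.25 (E10.25 CKO, 5 libraries), beside posterior hindlimb cells of wild-type embryos at E10.25 (E10.25 WT, 2 libraries). Wild-type E9.5 hindlimb (E9.5 HL), Shh-EGFP+ cells of the E10.5 posterior hindlimb (E10.5 Posterior) and cells of the E10.5 anterior hindlimb of Shh-EGFP embryos (E10.5 Anterior) had 1 library each.

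Hindlimb buds were also divided into anterior and posterior parts in 4 control embryos, which lacked at least 1 of the transgenes, and in 3 embryos that overexpressed Etv2 (Etv2OE). The latter carried iHA-Etv2 Tg/+ and ROSA26-STOP-rtTA-IRES-EGFP Tg/+ beside HoxB6-Cre Tg/+, so that doxycycline switched on HA-tagged ETV2 in the Cre lineage. As models these groups have limits. HoxB6-Cre acts in only part of the forelimb, not every cell of the induced limb bud made HA-ETV2, and the E10.25 WT and CKO samples were pools of embryos. The labels give E10.5 as the stage of the control and Etv2OE embryos, whereas the methods describe doxycycline at that stage and a later harvest.

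Hox genes encode homeodomain transcription factors that sit in clusters in the order in which they are expressed along the body and limb. Hoxa9, Hoxa10, Hoxa11 and Hoxa13 pattern the limb from the shoulder or hip towards the digits, and posterior HoxA and HoxD proteins act upstream of Shh in the limb bud. In the late limb bud Hoxa13 and its neighbours are driven by enhancers scattered through the landscape beyond Hoxa13, in stretches without genes and in introns of unrelated genes. A bulk library cannot tell fewer cells with an open site from a site that is less open in each cell.

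Several libraries stood apart. The lists held 13763 (E10.5 Anterior) to 54676 summits, and the shortest replicates were E10.25 CKO replicates 2 and 4, with 15626 and 19734. Both libraries of EYFP+ pool 758, replicate 3 of either limb, listed more HoxA summits than the other pools. Promoters of the 5 limb mesenchyme markers (Prrx1, Prrx2, Twist1, Msx1 and Msx2) were listed for 3 to 5 markers in every library except E10.5 Anterior, with 1. The hindlimb marker promoters Tbx4 and Pitx1 were listed for 1 or 2 in each hindlimb library, and for 0, 0 and 2 in the 3 E10.5 FL EYFP+ libraries. The forelimb marker Tbx5 was listed in both libraries of pool 758, forelimb and hindlimb, and in no other library, so these promoters did not tell the limbs of that pool apart. Promoters of endothelial genes were listed for 1 to 3 of 7 and of blood genes for 0 to 2 of 4 in every group. Of 5 ectoderm markers 0 to 3 were listed, except in E10.5 Posterior, with 5. Of 4 muscle progenitor markers (Pax3, Lbx1, Myf5 and Met), 1 to 4 were listed. The part of these differences in the results below was not tested.

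7 of the intervals that carry the results below are printed here from the mm10 genome (plus strand, 5′ to 3′), in lower case with every match to the searched motifs in capitals. The searched motifs were TTTATGG and TTTATTG for HOX proteins, AGGAAGT and AGGAAAT for ETS proteins, TAATTA for LHX proteins, AGATAA and TGATAA for GATA proteins and AGNNGGCGC for CTCF, on both strands, so that a match on the minus strand appears as its reverse complement. A match is a description of the letters and not a shown binding site. Intervals are named by their distance from the Hoxa13 start, negative within the cluster and positive towards Evx1 and Jazf1. The first pair comes from the cluster, the Hoxa5 start because few groups listed it and the gap between Hoxa7 and Hoxa9 because summits near it were listed widely.
Hoxa5 start, -56.3 kb (chr6:52204528-52204727): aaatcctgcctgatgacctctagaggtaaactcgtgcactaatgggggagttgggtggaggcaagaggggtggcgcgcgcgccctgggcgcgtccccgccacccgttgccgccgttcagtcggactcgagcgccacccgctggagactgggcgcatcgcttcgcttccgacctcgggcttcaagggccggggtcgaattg
Hoxa7 to Hoxa9 gap, -39.0 kb (chr6:52221806-52222005): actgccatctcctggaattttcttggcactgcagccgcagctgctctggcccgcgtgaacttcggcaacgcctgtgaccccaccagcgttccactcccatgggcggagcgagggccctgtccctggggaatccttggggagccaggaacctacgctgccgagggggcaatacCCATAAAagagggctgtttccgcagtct
The next pair lies between Evx1 and Hibadh, in a stretch without protein-coding genes, and its members differed in their listing between groups.
+182.6 kb (chr6:52443428-52443627): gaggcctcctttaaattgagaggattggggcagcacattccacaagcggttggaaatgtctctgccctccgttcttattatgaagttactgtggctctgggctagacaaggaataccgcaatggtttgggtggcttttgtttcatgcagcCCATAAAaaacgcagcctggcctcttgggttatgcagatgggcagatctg
+216.1 kb (chr6:52476849-52477048): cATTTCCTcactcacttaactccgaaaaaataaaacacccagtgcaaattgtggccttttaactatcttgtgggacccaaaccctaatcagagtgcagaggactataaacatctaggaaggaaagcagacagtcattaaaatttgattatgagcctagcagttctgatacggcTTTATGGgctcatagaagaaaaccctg
The last 3 lie in introns of Jazf1 and were listed in very different sets of libraries.
+516.1 kb (chr6:52776854-52777053): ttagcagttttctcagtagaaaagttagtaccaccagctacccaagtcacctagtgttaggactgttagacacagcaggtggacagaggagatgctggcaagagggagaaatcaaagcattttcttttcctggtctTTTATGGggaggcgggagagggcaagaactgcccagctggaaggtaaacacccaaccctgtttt
+591.7 kb (chr6:52852460-52852659): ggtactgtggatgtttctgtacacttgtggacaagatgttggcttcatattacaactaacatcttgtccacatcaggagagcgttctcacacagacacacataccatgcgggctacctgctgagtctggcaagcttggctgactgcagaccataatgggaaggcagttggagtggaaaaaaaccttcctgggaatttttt
+706.9 kb (chr6:52967706-52967905): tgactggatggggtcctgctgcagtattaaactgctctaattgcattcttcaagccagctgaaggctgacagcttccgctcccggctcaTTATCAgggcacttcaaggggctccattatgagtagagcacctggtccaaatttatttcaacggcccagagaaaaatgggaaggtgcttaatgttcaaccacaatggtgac
The HOX motif TTTATGG stood in 4 of the 7, the Hoxa7 to Hoxa9 gap, +182.6 kb, +216.1 kb and +516.1 kb. The +216.1 kb interval also held 1 ETS match, AGGAAAT, and the +706.9 kb interval held 1 GATA match, TGATAA. No searched motif was found in the other two.

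The summits were spread unevenly over the region, as the map of all lists shows. Genome-wide, a library listed 1.42 summits per 100 kb. Within the cluster the densest stretch was the 1.245 kb between Hoxa7 and Hoxa9, with 26 summits (65.3 per library per 100 kb), whereas the 2.435 kb of Hoxa6 held 0. The 52.6 kb between Hoxa13 and Evx1, where the noncoding gene Hottip lies, held 96 summits (5.70 per library per 100 kb). A further 189 lay between Evx1 and Hibadh, 2.59 per library per 100 kb over 228 kb. The 292 kb of Jazf1 that reach into the landscape held 383 of the 803 landscape summits, or 47.7% on 36.5% of its length.

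**Figure D1:**
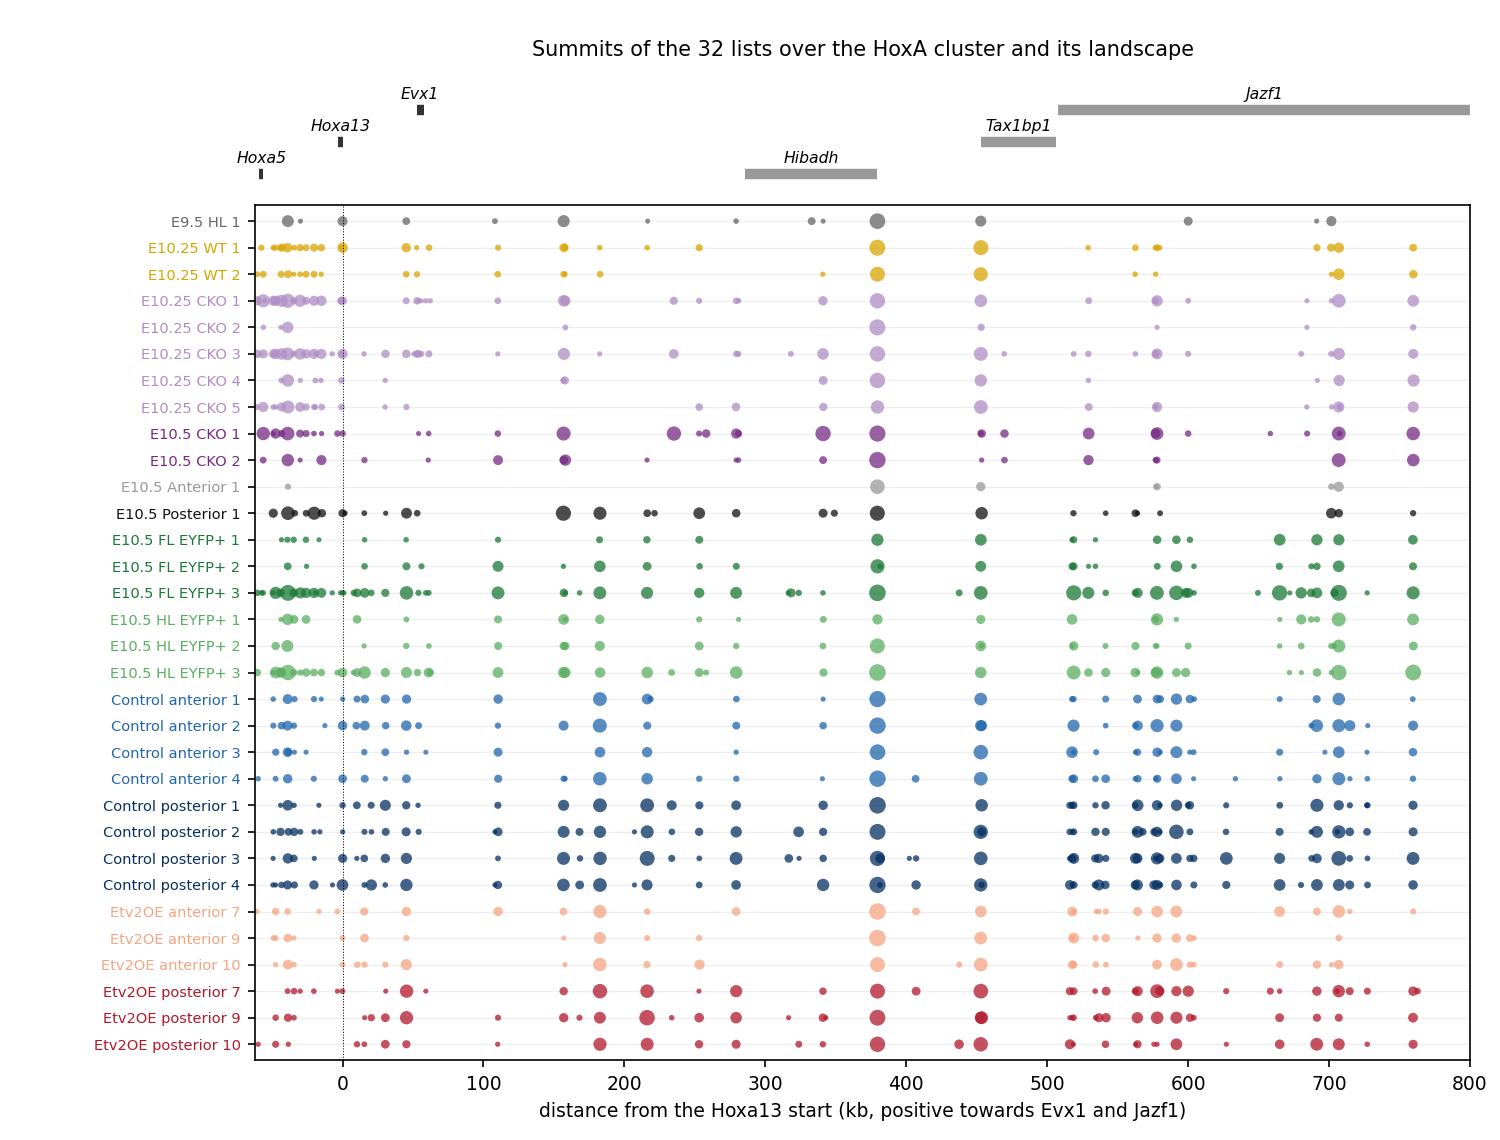
Summits of each of the 32 lists (rows) by distance from the Hoxa13 start in kb, with genes drawn above; a larger point is nearer the top of its list. The Hibadh promoter (379.5 kb) has a summit in all 32 rows, and the column at 591.7 kb is filled only in EYFP+, Control and Etv2OE rows.

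Intervals of the cluster were richer in GC (median 58%) than those of the landscape (48.5%) and of the whole genome (50.5%). Of the landscape intervals, 59 lay in introns and 34 between genes, and 2 (2.06%) were more than 50% repeat-masked, against 6.65% of all intervals. Few were listed widely, as 7 of 26 cluster intervals (26.9%) and 26 of 97 landscape intervals (26.8%) appeared in at least 10 libraries, compared with 33.6% of all intervals. The HOX motif TTTATGG was present in 5 of 26 cluster intervals (19.2%) and in 17 of 97 landscape intervals (17.5%), against 4.64% of all intervals. For TTTATTG the shares were 3.85%, 8.25% and 5.11%. The ETS motifs AGGAAGT and AGGAAAT were each found in 0 cluster and 4 landscape intervals (4.12%), and in 5.57% and 6.86% of all intervals. The remaining motifs stood in 0 to 2 cluster intervals and 2 to 8 landscape intervals each. These shares carry no test.

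The raw number of summits per library, not adjusted for list length, separated the parts of the limb bud in the landscape but not in the cluster. Control anterior libraries listed 26, 26, 25 and 32 landscape summits and Control posterior libraries 36, 43, 43 and 40. Etv2OE anterior libraries listed 23, 18 and 23, and Etv2OE posterior libraries 32, 33 and 28. Posterior counts lay above anterior counts in both genotypes without overlap, although posterior lists were also longer, at 51265 to 54676 summits against 40945 to 45762 in controls and at 38148 to 47051 against 32666 to 37993 in Etv2OE. As a share of the list the Control parts met, at 0.0564% to 0.0699% anterior and 0.0687% to 0.0839% posterior. The Etv2OE parts did not, at 0.0551% to 0.0619% anterior and 0.0680% to 0.0865% posterior. The part of list length was not tested, and the share of other regions with such a gap is not given here. Among the 10000 best summits of each library, the landscape held 2 to 3 in Control anterior, 1 to 3 in Control posterior, 2 to 3 in Etv2OE anterior and 3 to 4 in Etv2OE posterior libraries, and the ranges met or touched.

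Landscape summits numbered 18, 24 and 46 in E10.5 FL EYFP+ and 21, 26 and 37 in E10.5 HL EYFP+, the third being pool 758 in each. They numbered 24 and 17 in E10.5 CKO, 25, 6, 30, 10 and 15 in E10.25 CKO, 21 and 14 in E10.25 WT, 12 in E9.5 HL, 23 in E10.5 Posterior and 6 in E10.5 Anterior. The E10.25 CKO counts followed the list lengths, with the 2 shortest lists giving 6 and 10. Cluster summits numbered 3 to 8 in Control and 2 to 6 in Etv2OE libraries, without a gap between the parts. There were 12 and 8 in E10.25 WT, 12, 3, 13, 6 and 11 in E10.25 CKO, 10 and 4 in E10.5 CKO, 5, 2 and 14 in E10.5 FL EYFP+ and 4, 2 and 11 in E10.5 HL EYFP+. As a share of the list, the cluster took 0.0192% to 0.0369% in E10.25 CKO and 0.0235% to 0.0275% in E10.25 WT, both above the highest divided limb bud (0.0153%). E10.5 CKO replicate 1 (0.0290%), pool 758 (0.0289% in forelimb and 0.0320% in hindlimb) and E10.5 Posterior (0.0154%) also lay above it, and the remaining libraries did not. Experiment, stage and cell population cannot be told apart here.

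**Figure D2:**
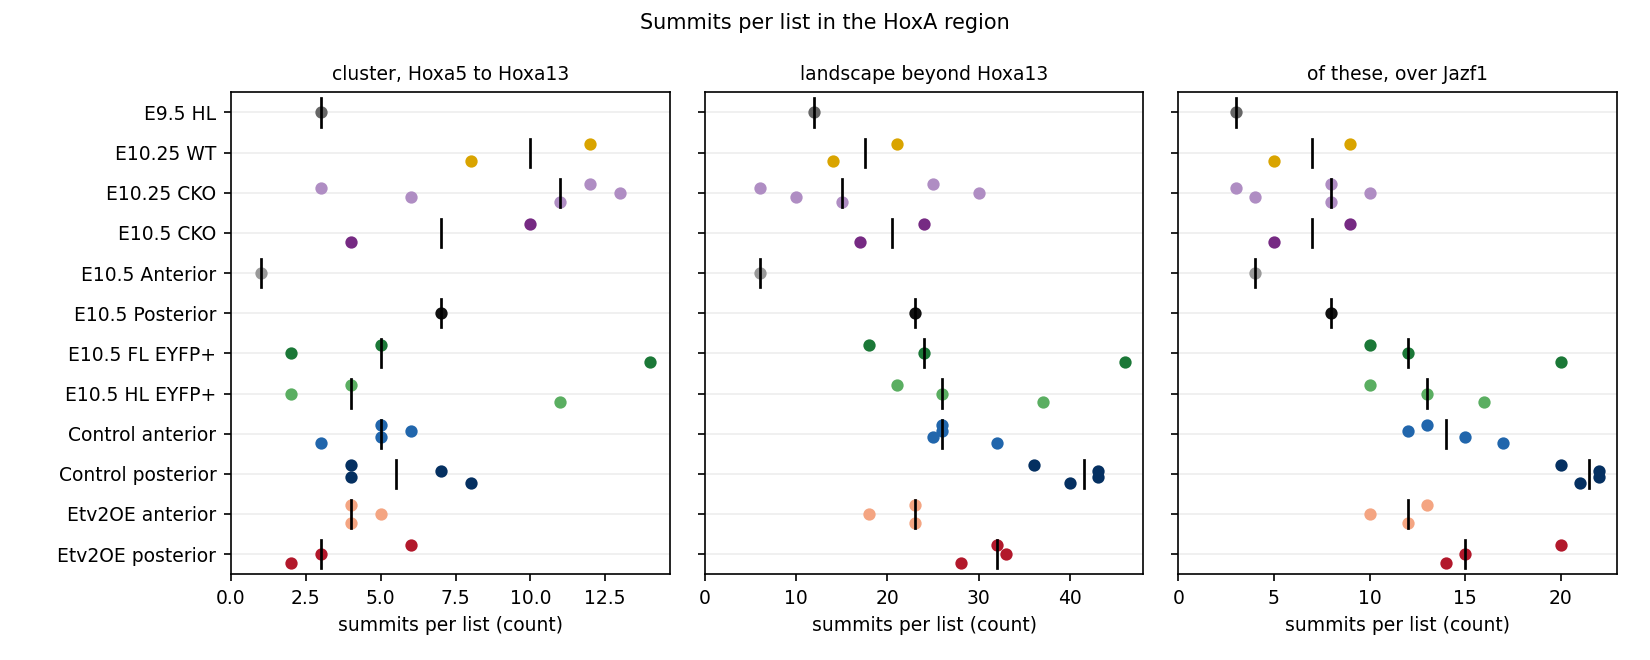
Summits per list in the cluster, in the landscape and in the landscape part that lies in Jazf1, 1 point per library and a bar at the group median. Control posterior libraries list 20 to 22 Jazf1 summits and Control anterior libraries 12 to 17, and the posterior lists are also longer.

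Jazf1, a zinc finger gene of the landscape, held a large share of these summits. Its introns and ends held 20 to 22 summits in Control posterior, 12 to 17 in Control anterior, 14 to 20 in Etv2OE posterior and 10 to 13 in Etv2OE anterior libraries. Posterior lists were also longer than anterior ones in both genotypes. The part of list length in these counts was not tested, and the share of other genes with such a gap is not given here. EYFP+ libraries listed 10 to 20 in forelimb and 10 to 16 in hindlimb. The other groups lay lower, at 3 to 10 in E10.25 CKO, 5 to 9 in E10.25 WT and in E10.5 CKO, 8 in E10.5 Posterior, 4 in E10.5 Anterior and 3 in E9.5 HL. These groups also come from separate experiments, and experiment and cell population cannot be told apart.

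The promoters of the 8 genes, taken as 1 kb on either side of any annotated start, were listed in fewer libraries than the median gene and with low ranks. Hoxa9, Hoxa10 and Hoxa13 were listed in 20 of 32 libraries each, Hoxa7 in 16, Hoxa11 in 12, Hoxa5 in 8, Evx1 in 7 and Hoxa6 in 0. Over all 21851 protein-coding genes 6672 (30.5%) were listed in 0 libraries, 6877 (31.5%) in all 32, and the median gene in 28. Where listed, the members ranked at a median of 62.2% (Hoxa5) to 76.3% (Hoxa9) of the list, with 0% the strongest summit. By contrast the promoters of Hibadh, an enzyme of valine breakdown, and Tax1bp1, an autophagy adaptor, were listed in all 32 libraries at medians of 7.98% and 27.9%. The HoxD counterparts were also listed in part of the libraries, Hoxd9 in 19, Hoxd10 in 23, Hoxd11 in 19, Hoxd12 in 9 and Hoxd13 in 20 libraries.

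**Figure D3:**
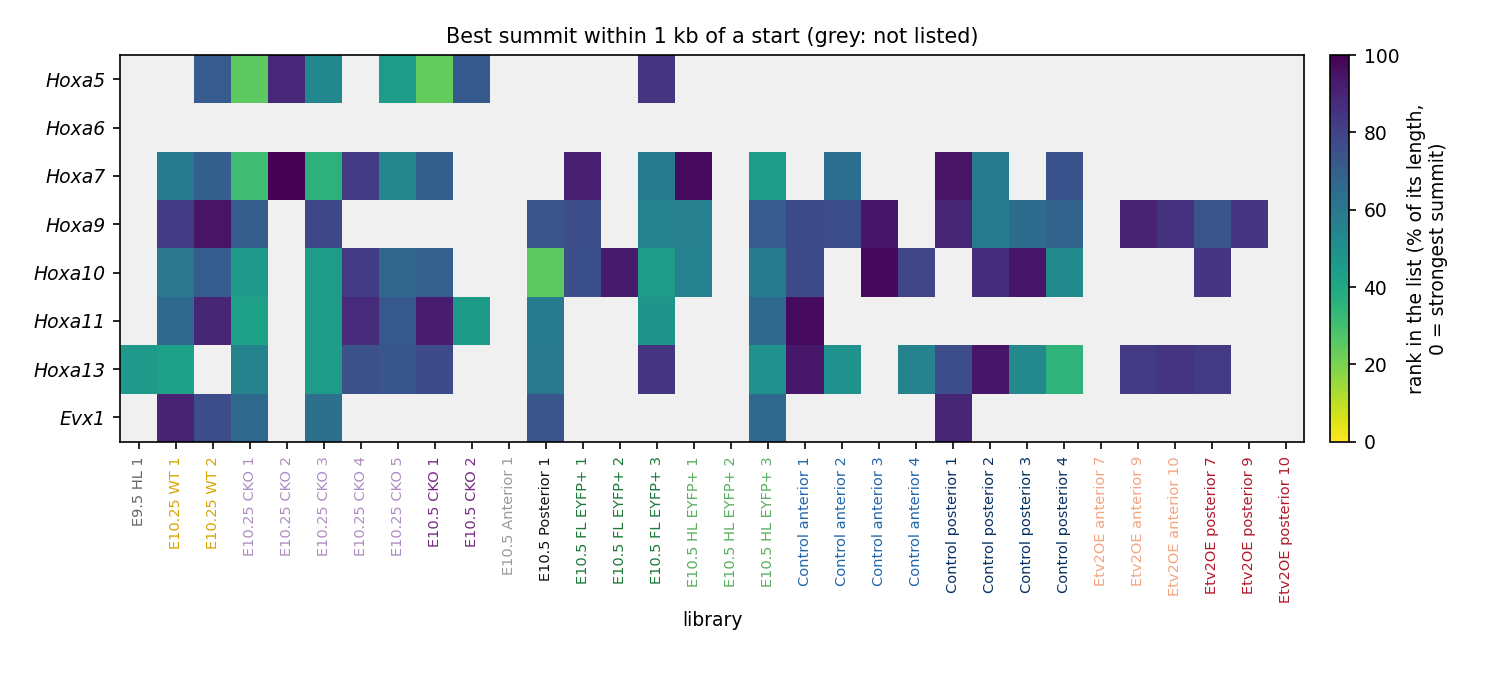
Rank of the best summit within 1 kb of a start of each of the 8 genes (rows) in each library (columns), as % of the list, with 0 the strongest summit and grey for not listed. The Hoxa5 row is filled in 6 of 7 CKO columns, 1 E10.25 WT column and 1 E10.5 FL EYFP+ column, and in none of the Control and Etv2OE columns.

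Hoxa13, which is required for the digits, was listed in 3 of 4 Control anterior libraries (ranks 38230, 21358 and 25378) and in 4 of 4 Control posterior libraries (40089, 48183, 29009 and 18866). It was listed in Etv2OE anterior replicates 9 and 10 (27106 and 32344) and in Etv2OE posterior replicate 7 (39048). The ranks of the Control parts overlapped. The list of Etv2OE posterior replicate 7 was longer, at 47051 summits, than those of anterior replicates 9 and 10, at 32666 and 37993. As a share of the list, Hoxa13 stood at 82.99% in posterior replicate 7, between 82.98% and 85.13% in anterior replicates 9 and 10. Among posterior hindlimb cells Hoxa13 was listed in E10.5 Posterior (27138), E10.25 WT replicate 1 (18641) and E10.5 CKO replicate 1 (26569). It was also listed in 4 of 5 E10.25 CKO libraries (17992, 19334, 14859 and 22078). The E9.5 HL library listed it at 17167, the only one of the 8 promoters listed there. EYFP+ cells listed it in pool 758 alone, at 40946 in forelimb and 16998 in hindlimb.

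Hoxa11, which patterns the forearm and lower leg, was listed in 4 of 5 E10.25 CKO, 2 of 2 E10.25 WT and 2 of 2 E10.5 CKO libraries, but in only 1 of the 14 divided limb buds (Control anterior replicate 1, rank 39808). Hoxa10, which patterns the upper limb, was listed in 3 of 3 E10.5 FL EYFP+ and 2 of 3 E10.5 HL EYFP+ libraries and in 6 of 8 Control libraries, against 1 of 6 Etv2OE libraries. Its best rank was 11275, in E10.5 Posterior. Hoxa9 was listed in 7 of 8 Control and 4 of 6 Etv2OE libraries at ranks of 29374 to 46950. Hoxa7, which acts mainly along the body axis, was listed in 5 of 5 E10.25 CKO and 2 of 2 E10.25 WT libraries. It was listed in 4 of 8 Control and in 0 of 6 Etv2OE libraries. Etv2OE lists were shorter, with medians of 37159 anterior and 38725 posterior summits against 43701.5 and 53182 in Control. Hoxa10 stood low in the Control lists, at medians of 79.0% anterior and 87.1% posterior. The part of list length in these counts was not tested, and the share over all promoters is not given here. Evx1, a homeodomain gene beside the cluster, was listed in both E10.25 WT libraries (39240 and 26037), 2 of 5 E10.25 CKO libraries (21379 and 27002), E10.5 Posterior (33369) and 2 further libraries.

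Hoxa5 was listed mainly in CKO libraries. This gene, at the end of the region away from Evx1 and known for its role in lung and axial skeleton, was listed in E10.5 CKO at ranks 8092 and 20306. It was listed in 4 of 5 E10.25 CKO libraries, at 8043, 13805, 22754 and 13457, in E10.25 WT replicate 2 at 24223 and in E10.5 FL EYFP+ replicate 3 at 41087. No E10.5 HL EYFP+, Control, Etv2OE, E9.5 HL, E10.5 Anterior or E10.5 Posterior library listed it. The share of all promoters with such a split is not given here, and experiment and genotype cannot be told apart.

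**Figure D4:**
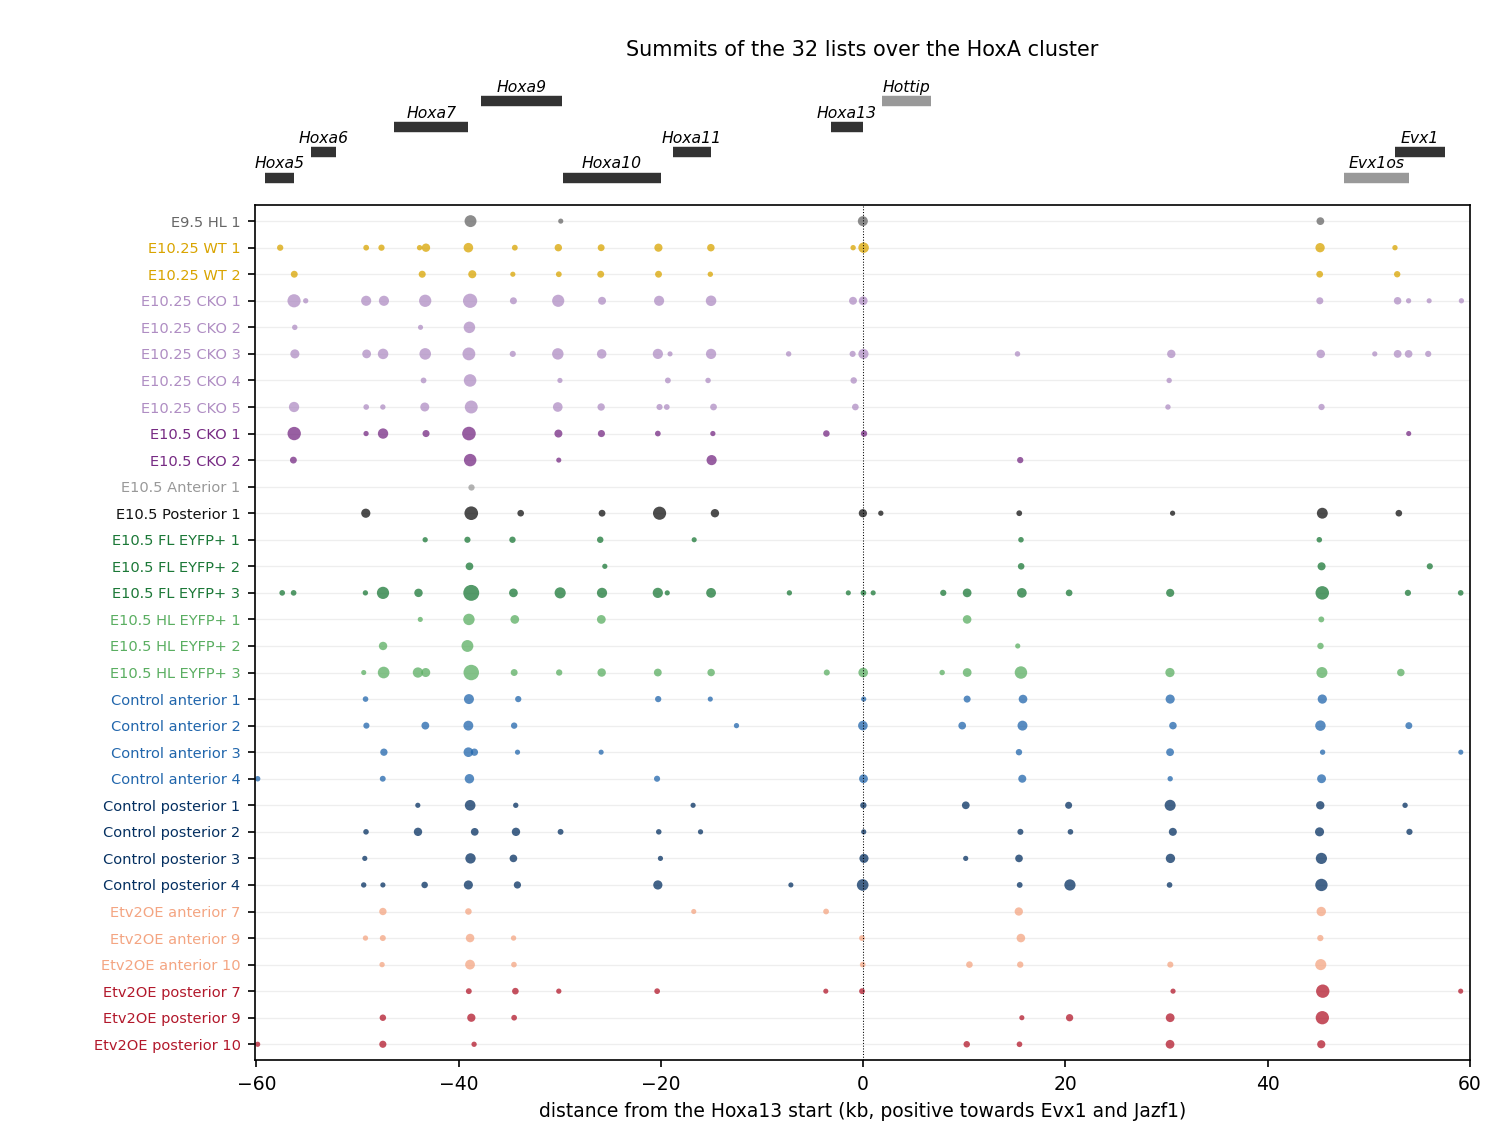
Summits of the 32 lists (rows) from Hoxa5 to just past Evx1, by distance from the Hoxa13 start in kb; a larger point is nearer the top of its list. Every row has a summit within 500 bp of the interval at -38.7 kb, in or beside the stretch between Hoxa7 and Hoxa9, and the Hoxa5 start, near -56 kb, mostly in the CKO rows.

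Over the 32 libraries, the promoters whose rank within the list followed that of Hoxa13 most closely were Lhfp (Spearman's rho 0.841), Drd1 (0.762), Gpr26 (0.756), Pxn (0.756) and Nav1 (0.738), of 14720 genes ranked. Of the other members the nearest was Hoxa7 (0.450), followed by Hoxa10 (0.435), Evx1 (0.415), Hoxa11 (0.347), Hoxa9 (0.329) and Hoxa5 (0.0462). The libraries share list length and experiment, so these values describe the lists only.

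Across all libraries the cluster was listed most widely around the gap between Hoxa7 and Hoxa9 (sequence above). The gap itself held a summit in 26 of 32 lists, and the -39.0 kb interval had one within 500 bp in 30. Within 500 bp of the neighbouring interval at -38.7 kb, a window that reaches into Hoxa7, a summit lay in 32 of 32 lists, at ranks of 3187 to 38662 and a median of 47.2% of the list. The highest ranks of this window were in EYFP+ pool 758, 3187 in forelimb and 3240 in hindlimb. E10.25 CKO lay at 5696, 5625, 11562, 5716 and 7941, and E10.5 CKO at 7493 and 8357. E10.25 WT lay at 21714 and 20800, with no overlap with E10.25 CKO. The medians were 55.5% of the list in E10.25 WT and 27.1% in E10.25 CKO. Neither interval was called between these groups (limma adjusted p = 0.697 at -39.0 kb and 0.747 at -38.7 kb). The share of all intervals without overlap is not given here, and date and genotype cannot be told apart. In the divided limb buds the best summit of the window lay between 18339 and 38662.

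In the landscape the Hibadh promoter (chr6:52640315-52640514) was listed in 32 of 32 libraries. The +706.9 kb interval in an intron of Jazf1 had a summit within 500 bp in 30 libraries, at a median of 32.8% of the list and absent from E9.5 HL and E10.25 CKO replicate 2. By the same 500-bp window, the Tax1bp1 start (+453.0 kb) had a summit in 29 libraries, +577.9 kb in Jazf1 in 28, +45.4 kb, between Hoxa13 and Evx1, in 27 and +182.6 kb in 24.

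The +591.7 kb interval was listed in 19 libraries, namely 3 of 3 E10.5 FL EYFP+, 2 of 3 E10.5 HL EYFP+, 8 of 8 Control and 6 of 6 Etv2OE, and in 0 of the 12 others. Its ranks were 21297, 16234 and 7688 in E10.5 FL EYFP+ and 29529 and 19101 in E10.5 HL EYFP+. The Control libraries ranked it at 13819 to 19199 anterior and 8083 to 22915 posterior, and the Etv2OE libraries at 10459 to 16714 and 12082 to 21156. The parts overlapped in both genotypes. The +664.9 kb interval, also in Jazf1, was listed in 17 libraries of the same groups and in 0 of the 12 others. The share of all intervals with such a split is not given here. As for the Jazf1 counts, experiment and cell population cannot be told apart. The 12 others also include the shortest lists, with 13763 (E10.5 Anterior) and 15626 (E10.25 CKO replicate 2) summits.

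**Figure D5:**
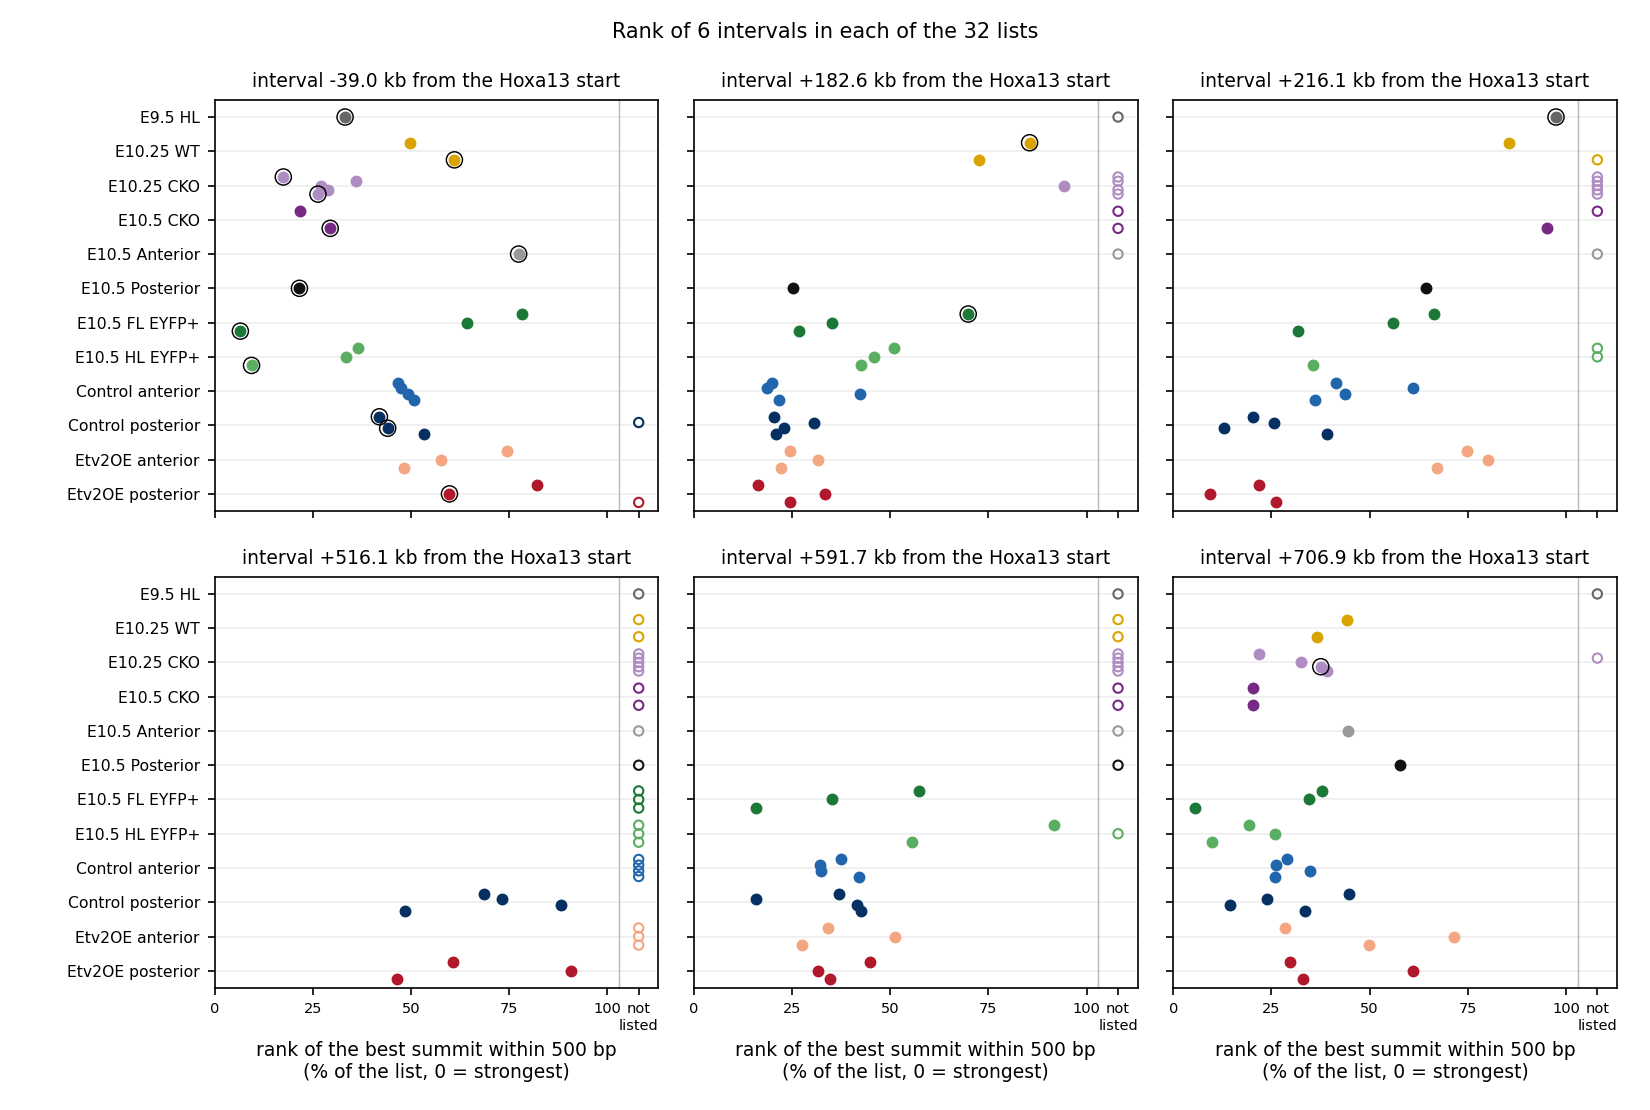
Rank of the best summit within 500 bp of 6 intervals in each library, as % of the list (0 is the strongest summit), with open circles at the right for not listed and a ring where the summit lies outside the 200-bp interval itself. At +516.1 kb only the 4 Control posterior and 3 Etv2OE posterior libraries are listed, and at +182.6 kb no E10.5 CKO library is.

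To ask whether the region differed where Etv2 was deleted, E10.5 HL EYFP+ cells were set against E10.5 CKO cells, which also differ in how the cells were obtained. Promoters of the 4 muscle progenitor markers were listed for 3, 4 and 3 markers in E10.5 HL EYFP+ and for 1 and 1 in E10.5 CKO, and their part in the values below was not tested. A rank score was used that runs from near 1 for the strongest summit to 0 for a site outside the best summits of a list, and it was fitted by limma over all intervals. The +182.6 kb interval was listed in E10.5 HL EYFP+ at ranks 16426, 18952 and 14667 and in neither E10.5 CKO library, so that the groups did not overlap. Its score was 0.333 against 0 (difference 0.333 ± 0.0792 SE, limma adjusted p = 0.113). The same interval was listed in all 14 divided limb buds (7662 to 18795), in 2 of 3 E10.5 FL EYFP+ libraries (16233 and 12938, and replicate 1 at 25994 within 500 bp only) and in E10.5 Posterior (11419), and not in E9.5 HL or E10.5 Anterior. At E10.25 it was listed in 1 of 2 WT libraries, 24759, with the other at 37244 within 500 bp, and in 1 of 5 CKO libraries, 40313.

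The Hoxa5 start went the other way, with a score of 0 in E10.5 HL EYFP+ and 0.432 in E10.5 CKO (difference -0.432 ± 0.159 SE, limma adjusted p = 0.275). The +341.0 kb interval, in an intron of Hibadh, was ranked at 3509 and 17848 in E10.5 CKO and at 22910, 30200 and 20632 within 500 bp, mostly outside the interval itself, in E10.5 HL EYFP+ (score difference -0.573 ± 0.183 SE, limma adjusted p = 0.209). At the Tax1bp1 start the score was 0.374 against 0 (SE 0.0879, limma adjusted p = 0.110), although E10.5 CKO replicate 1 listed this interval at 27440, outside the 25000 best. Both E10.5 CKO libraries also listed a summit in the interval centred 637 bp from the start, at 19955 and 26087. Of 30 region intervals tested, limma called 0 at an adjusted p of 0.05, against 4.69% of all intervals, and 5 had an unadjusted p under 0.05. Here and below, the share of all intervals at an unadjusted p under 0.05 is not given, so such counts have no background to be read against. Over the whole lists 4 of 45 region intervals were listed in all libraries of 1 group and none of the other, against 12.8% of all intervals. They were +182.6 and +680.2 kb in E10.5 HL EYFP+ and the Hoxa5 start and +469.7 kb in E10.5 CKO. With the whole lists scored, +182.6 kb passed the test (0.535 against 0, limma adjusted p = 0.0319). Without E10.5 HL EYFP+ replicate 3, an interval in a Jazf1 intron at +759.7 kb was called (0.0456 against 0.680, limma adjusted p = 0.0434), which is named here after its values were seen. Of 5 member promoters tested 0 were called, against 0% of all promoters, and 1, Hoxa5, had an unadjusted p under 0.05 (limma adjusted p = 0.536).

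At E10.25, where CKO and WT posterior hindlimb cells were compared at 1 stage, 0 of 11 region intervals were called, against 2.36% of all intervals, and 0 had an unadjusted p under 0.05. Of 43 intervals 0 were listed in all libraries of 1 group and none of the other, against 6.09%. The largest differences were in the Hoxa7 to Hoxa9 gap, where the scores were 0 in WT and 0.295 and 0.218 in CKO for its neighbouring intervals (limma adjusted p = 0.697 and 0.747). Hoxa5 was the only member promoter that could be tested (0 against 0.129, limma adjusted p = 0.700), so 0 of 1 was called, against 0.851% of all promoters. Only the 15000 best summits could be scored because of the shortest CKO lists. Without those 2 lists, a choice made after seeing the data, limma called 2 of 28 intervals, both higher in CKO. These were +577.9 kb in Jazf1 (0 against 0.522, limma adjusted p = 0.0326) and an interval in a Hoxa9 intron (0.0439 against 0.548, limma adjusted p = 0.0431), the latter named after its values were seen. The labels give the WT libraries 1 date that no CKO library shares, so date and genotype cannot be told apart.

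Between CKO stages, E10.5 against E10.25, 0 of 14 intervals were called, against 7.6% of all intervals, and 3 had an unadjusted p under 0.05. The +706.9 kb interval was ranked at 7018 and 5753 at E10.5 and at 7134, 13890, 7417 and 11792 in 4 of 5 libraries at E10.25, of which 7417 lay within 500 bp but outside the interval (score 0.574 against 0.162, limma adjusted p = 0.197). The Tax1bp1 start scored 0 at E10.5 and 0.404 at E10.25 (limma adjusted p = 0.243). That difference passed the test without E10.25 CKO replicate 2 (limma adjusted p = 0.0313), and the one at +706.9 kb without E10.25 CKO replicate 1 (limma adjusted p = 0.0360). By presence, 1 of 45 intervals, in Tax1bp1 637 bp from its start, was listed in all E10.5 and no E10.25 CKO libraries, against 4.06% of all intervals. However, 1 E10.25 CKO library had a summit within 500 bp of it (10582), and 5 of 5 listed the Tax1bp1 promoter. Of 2 member promoters tested, Hoxa5 and Hoxa11, 0 were called (0 at an unadjusted p under 0.05), against 8.1% of all promoters.

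Forelimb and hindlimb EYFP+ cells of the same pools were compared next. Both libraries of pool 758 listed the same limb marker promoters, Tbx4, Pitx1 and Tbx5, and the count of called intervals below was also 0 without that pool. In the region limma called 0 of 37 intervals, against 0.137% of all intervals, and 0 had an unadjusted p under 0.05. The largest differences towards forelimb were at +664.9 kb (0.467 against 0) and +591.7 kb (0.498 against 0.126), and towards hindlimb in 1 interval of the Hoxa7 to Hoxa9 gap (0.0143 against 0.382) and at +158.2 kb (0 against 0.254), with limma adjusted p of 0.787 to 0.790. At the neighbouring interval of that gap the scores were 0.298 in forelimb and 0.297 in hindlimb. All 3 libraries of each limb had a summit within 500 bp of either interval. By presence, 1 of 52 intervals, +577.0 kb in Jazf1, was listed in all hindlimb (22238, 33177 and 16573) and no forelimb libraries, against 3.41% of all intervals. Of 4 member promoters tested, 0 were called and 0 had an unadjusted p under 0.05, against 0% of all promoters.

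Between the anterior and posterior parts of control limb buds, limma called 1 of 56 region intervals, against 2.04% of all intervals, a share no higher than that background. At this interval, -39.0 kb in the gap between Hoxa7 and Hoxa9, a summit was listed in all 4 anterior libraries (19165, 20452, 21873 and 23259) and in 1 posterior library (28805). Its score was 0.470 anterior and 0.0700 posterior (difference 0.400 ± 0.0717 SE, limma adjusted p = 0.0359). The other posterior summits lay close by. Within 500 bp of the neighbouring interval the posterior ranks were 21987, 32843, 24104 and 28805, so that the parts overlapped. With 500-bp intervals the difference was 0.144 (limma adjusted p = 0.338), and with the embryo as block the adjusted p was 0.185. The call was lost without Control anterior replicate 1, 2, 3 or 4 or Control posterior replicate 1, 2 or 3 (limma adjusted p = 0.0669 to 0.0940).

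Towards the posterior part a large difference was at +691.4 kb in Jazf1 (0.102 against 0.530, limma adjusted p = 0.155), which passed the test without Control anterior replicate 4 (limma adjusted p = 0.0311). Without Control anterior replicate 1, +577.9 kb was called (0 against 0.452, limma adjusted p = 0.0109), and without replicate 3 an interval at +15.8 kb (0.403 against 0, limma adjusted p = 0.0191), named after its values were seen. By presence, 1 of 71 intervals was listed in all of 1 part and none of the other, against 2.24% of all intervals. This was +516.1 kb in an intron of Jazf1, ranked at 35989, 37492, 48294 and 26216 in posterior libraries. Of 4 member promoters tested 0 were called, against 0.0147% of all promoters, and 0 had an unadjusted p under 0.05. Hoxa13 scored 0.219 anterior and 0.201 posterior (SE of the difference 0.157).

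In Etv2OE limb buds the interval called between the parts was +216.1 kb, between Evx1 and Hibadh. The posterior ranks were 10281, 3535 and 10134 and the anterior ranks 27791, 26193 and 25552, with no overlap. The score was 0.116 anterior and 0.734 posterior (difference -0.618 ± 0.0791 SE, limma adjusted p = 0.0451), the 1 call among 31 region intervals, against 0.783% of all intervals. In controls the same interval lay at 16965, 26272, 19458 and 16562 anterior and at 10690, 13134, 7039 and 21094 posterior, and these parts overlapped. The call in Etv2OE held with 500-bp intervals (limma adjusted p = 0.0371) and was lost with the embryo as block (limma adjusted p = 0.301) and without any 1 of Etv2OE anterior 7, 9 or 10 or posterior 7, 9 or 10 (0.0550 to 0.105).

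No member promoter was listed often enough to be tested in this comparison. Presence separated the Etv2OE parts at 3 of 43 intervals, against 4.14% of all intervals. The +516.1 kb interval was again listed only in posterior libraries (28540, 34618 and 18016), and +341.0 kb in Hibadh only in posterior libraries as well (31080, 22183 and 29180). The +518.0 kb interval of Jazf1 was listed only in anterior libraries (17907, 27027 and 21040), although posterior replicate 9 had a summit within 500 bp of it (35017). Over all 32 libraries +516.1 kb was listed in the 7 posterior parts and in 0 of the 25 others, E10.5 Posterior among them. The share of all intervals with this split is not given here. The interval stood low, at medians of 70.9% of the Control posterior and 60.7% of the Etv2OE posterior lists. Posterior lists were also longer than anterior ones, and the part of list length was not tested.

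Etv2OE and control limb buds were then compared part by part. In the anterior part 0 of 29 intervals were called, against 0.12% of all intervals, and 2 had an unadjusted p under 0.05. The +518.0 kb interval had the largest difference (0.267 in Etv2OE against 0, limma adjusted p = 0.761), and without Etv2OE anterior replicate 9 it passed the test (limma adjusted p = 0.0414). It was also the 1 of 45 intervals listed in all of 1 group and none of the other, against 1.13% of all intervals, but Control anterior replicates 1, 3 and 4 had summits within 500 bp (32989, 15636 and 30044). Hoxa13 was the only member promoter tested (0.0322 against 0.111, limma adjusted p = 0.928), so 0 of 1 was called, against 0% of all promoters.

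In the posterior part 1 of 46 intervals was called, lower in Etv2OE, against 0.131% of all intervals, and the call was lost with 500-bp intervals, without Control posterior replicate 2, 3 or 4 and without any 1 of Etv2OE posterior 7, 9 or 10. By presence 1 of 68 intervals separated the groups, against 1.44% of all intervals. The largest difference towards Etv2OE was at +45.4 kb, between Hoxa13 and Evx1 (0.586 against 0.235, difference 0.351 ± 0.174 SE, limma adjusted p = 0.862). The ranks within 500 bp of it were 11037, 9128 and 23350 in Etv2OE and 30872, 27533, 20876 and 16260 in Control libraries, and the groups overlapped. Of 2 member promoters tested, Hoxa9 and Hoxa13, 0 were called and 0 had an unadjusted p under 0.05, against 0.0458% of all promoters.

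Whether the difference between parts itself differed between Etv2OE and control limb buds was tested over all 14 libraries. limma called 0 of 45 region intervals, against 0.0508% of all intervals, and 4 had an unadjusted p under 0.05. Without Etv2OE anterior replicate 9, +518.0 kb passed the test (limma adjusted p = 0.00418). At +216.1 kb the anterior minus posterior difference in Etv2OE minus that in controls was -0.390 ± 0.153 SE (limma adjusted p = 0.958).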

How the data were processed

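Summit lists of 32 ATAC-seq libraries were used. Per the labels and methods, the authors aligned reads to mm10 with Bowtie2 2.2.4, removed duplicates with Picard, shifted read ends for Tn5 and ran MACS2 on each library, without pooling replicates. For MACS2 neither version nor settings were given in the sources used here. Each deposited line holds a summit position and its −log10 q-value. The lowest value of a list was 1.30 to 1.34, at or slightly above that of a q of 0.05. Without read counts the depth is unknown, and no interval or limit that needs it is given. A site missing from a list was not called there and need not be closed.

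Values served only as ranks within a list. Mitochondrial summits were dropped. Intervals of 200 bp were placed on summits in order of rank, and a summit went to the nearest centre within 200 bp. The rank score was (N + 1 − rank)/N, and 0 if not among the N best, with N rounded down to a multiple of 5000 from the shortest list compared (15000 to 40000). Intervals and promoters listed in at least 2 libraries of a comparison were fitted by limma 3.58.1 (R 4.3.3) by group, two-sided, with Benjamini-Hochberg adjustment over all of them at 0.05. Genes were those of GENCODE M21. Python 3.11.15, numpy 2.4.6 and pandas 2.3.3 were used, and the fits were tested on simulated data.

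Groups came from the labels, whose letters A and P were read as anterior and posterior after the methods. The genes, region and lists of markers and motifs were chosen with earlier results of these data known. Intervals were named if called, if among the 10 in the most libraries, if among the 2 largest differences per direction, or if they separated groups by presence (at most 3 per direction). The labels do not say that replicates came from separate litters, so p-values measure the spread between these libraries. Forelimb and hindlimb EYFP+ libraries share pools, and anterior and posterior parts share embryos, per the labels. Deviations from group means correlated at 0.204, 0.198 and 0.437 within a pool (-0.266 to 0.073 otherwise), and at 0.0102 to 0.0443 (control) and 0.0222 to 0.0445 (Etv2OE) within an embryo. 1 called interval and 1 further promoter are not reported here. Alternatives were pool or embryo as block, the 10000 best summits, whole lists, no filter on libraries, a summit within 100 bp, 500-bp intervals, promoters of 500 bp and each library left out in turn.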

Additional observations from a re-analysis of the deposited data

Results flagged for a closer look

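In 36 groups of 4 or 5 values, 4 libraries lay far from the rest of their group, and chance alone marks about 1 group in 20. Control anterior replicate 4 listed 32 landscape summits, whereas the other 3 listed 25 to 26. At +182.6 kb Control anterior replicate 3 ranked at 42.4% of its list, against 18.6% to 21.8% in the others. At the Hibadh promoter E10.25 CKO replicate 5 ranked at 23.2%, against 5.55% to 9.98% in the other 4. At +577.9 kb Control posterior replicate 3 ranked at 31.9%, against 44.1% to 45.3%. Among 26 intervals compared between parts embryo by embryo, 0 moved one way in every control embryo and the opposite way in every Etv2OE embryo.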

How the results depend on the processing

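Of 17 counts of calls, 14 were 0 as reported and 9 of these were 0 under every alternative. Small groups and unknown depth limit what a count of 0 says. As reported, the promoter count between the Etv2OE parts had no member to test, so it could only be 0. Promoter counts elsewhere rested on few members, down to 1. Comparing E10.5 CKO with EYFP+ hindlimb cells, the count became 1 with the whole lists (+182.6 kb) and was 0 to 1 with a library left out. For E10.25 WT against CKO it became 2 without the 2 shortest CKO lists, which was added once the data had been seen. For E10.5 against E10.25 CKO it became 2 with 500-bp intervals (the Tax1bp1 start and an intron of Jazf1), 1 without the 2 shortest lists and 0 to 1 with a library left out. For Control anterior against posterior it was 0 with the 10000 best summits, the whole lists, no filter on libraries, 500-bp intervals or the replicate block of the embryo, 2 with a summit within 100 bp (the Hoxa7 to Hoxa9 gap and +279.2 kb) and 0 to 1 with a library left out. For Etv2OE anterior against posterior it was 0 with the 10000 best summits, no filter, a summit within 100 bp, the replicate block or any library left out. For Etv2OE anterior against Control anterior and for the interaction of part and genotype it was 0 to 1 with a library left out, and for Etv2OE posterior against Control posterior 0 to 1, and 0 with the 10000 best summits, a summit within 100 bp or 500-bp intervals. The pool block and leaving out both libraries of pool 758, the latter chosen after seeing the data, left the count for forelimb against hindlimb at 0, and the block changed no other call than those of the embryo given above. 1 difference reversed, the Tax1bp1 start in E10.25 WT against CKO, at -0.0843 with a summit within 100 bp (limma adjusted p = 0.881). With summits of a −log10 q of at least 5 the cluster held 16 intervals and the landscape 65, in place of 26 and 97. The intron of Jazf1 called with 500-bp intervals was named after its values were seen. The cause of each change was not tested.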
